A study of Mus musculus with 13 samples.

Results

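The genes described here are 10 genes of fibroblast growth factor (FGF) signalling out of 45250 genes in the deposited RNAseq table. They are the ligands Fgf3, Fgf5, Fgf8, Fgf10 and Fgf15, the receptor Fgfr1, and the feedback inhibitors Spry1, Spry2, Spry4 and Dusp6. Members were chosen by gene name, and each name matched 1 row of the table. RNAseq was performed on mouse embryonic stem (ES) cells differentiated in vitro towards blood. There were 3 libraries each of Flk-1+ haemangioblasts from WT, Lmo2-/- and Tal1-/- ES cells, sorted from embryoid bodies for Flk-1 (VEGFR2). There were 2 libraries each of WT and Lmo2-/- haemogenic endothelium 1 (HE1), which forms from Flk-1+ cells in blast culture and is sorted as Tie2+, Kit+ and CD41-. Lmo2 encodes a bridging protein and Tal1 a DNA-binding protein of 1 haematopoietic transcription factor complex, and each knockout was already present in the ES cells. The study names 1 ES cell line a genotype, so libraries of a genotype do not replicate the line, and a difference between genotypes cannot be told apart from one between lines. No age or sex applies, and no group received a further treatment in the labels.

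FGF ligands are secreted proteins that bind receptor tyrosine kinases such as FGFR1 and start the RAS-MAPK cascade inside the cell. The cascade switches on its own inhibitors: Sprouty proteins (Spry genes) act between the receptor and RAS or RAF, and DUSP6 is a phosphatase that acts on the cascade's last kinases in the cytoplasm. In the gastrulating embryo Fgf8 and Fgfr1 are needed for cells to leave the primitive streak and form mesoderm, the source of haemangioblasts. Fgf3, Fgf4 and Fgf15 are neighbours in the genome, and Fgf15 is the mouse counterpart of human FGF19.

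Promoter sequence was held for 6 of the 10 members (Fgf3, Fgf5, Fgf10, Spry1, Spry2 and Dusp6) in the RefSeq table of build GRCm38.p6. The 250 bases before the start of transcription are shown for the 3 feedback genes among them. Of these, Spry1 and Spry2 were the members that passed the test between the HE1 groups, and Dusp6 did not pass it there. Capitals mark 3 short motifs read on both strands, namely an ETS core (CGGAA), an E-box (CANNTG) and a GATA motif (GATAA). The E-box letters read the same on both strands, and no capital run joins overlapping motifs.
Spry1, chr3:37639697-37639946, plus strand: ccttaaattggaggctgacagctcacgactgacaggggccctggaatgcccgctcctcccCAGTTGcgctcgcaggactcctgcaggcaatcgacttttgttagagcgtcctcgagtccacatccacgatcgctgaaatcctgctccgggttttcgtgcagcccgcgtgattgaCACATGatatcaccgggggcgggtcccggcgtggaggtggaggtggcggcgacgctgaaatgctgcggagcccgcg
Spry2, chr14:105896820-105897069, minus strand: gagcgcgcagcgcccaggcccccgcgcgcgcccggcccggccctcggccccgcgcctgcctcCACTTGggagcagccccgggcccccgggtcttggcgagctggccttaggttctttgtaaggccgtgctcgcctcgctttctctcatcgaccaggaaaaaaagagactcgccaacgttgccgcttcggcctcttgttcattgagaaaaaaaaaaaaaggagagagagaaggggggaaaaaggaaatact
Dusp6, chr10:99262981-99263230, plus strand: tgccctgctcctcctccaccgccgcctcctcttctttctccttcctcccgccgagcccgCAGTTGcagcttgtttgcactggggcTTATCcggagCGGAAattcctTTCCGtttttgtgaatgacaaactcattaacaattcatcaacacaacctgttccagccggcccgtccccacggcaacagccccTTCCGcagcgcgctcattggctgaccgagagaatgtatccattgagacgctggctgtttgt
The Dusp6 window held 3 ETS cores, 1 E-box and 1 GATA motif. The Spry1 window held 2 E-boxes and the Spry2 window 1 E-box, with no ETS core or GATA motif in either. Among the members not printed, the Fgf5 window held 1 ETS core, the Fgf3 window 1 GATA motif and the Fgf10 window 2 E-boxes. The Fgf3 (chr7:144838362-144838611), Fgf10 (chr13:118714449-118714698) and Spry1 windows lie before the RefSeq start but within the positions of their rows given below. Of 32851 promoter windows of the same length in the table, 25.2 percent held an ETS core, 66.2 percent an E-box and 22.6 percent a GATA motif. A match of these letters is not a binding site, and no binding data were analysed here. The Spry1 window lies within an exon of an unprocessed transcript annotated on the opposite strand (Gm42922, GENCODE M21).

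Levels are given as FPKM, the fragments counted per kilobase of transcript relative to library size. One library stood apart: 9694 genes were above 0 in Lmo2-/- HE1 replicate 1, and 11861 to 15641 in each of the other 12. In it 191 of the 4079 genes with a library median over 10 FPKM stood at 0, and no other library had more than 59 such genes. Counted fragments were not given, which leaves the depth of each value unknown, and a value listed at 0 is not shown to be absence. Lmo2 itself had 22.8, 30.8 and 21.6 FPKM in WT Flk-1+ cells and 2.63, 6.48 and 2.17 in Lmo2-/- Flk-1+ cells. Its HE1 values were 4.30 and 20.6 FPKM under the WT label and 6.42 and 0 under the Lmo2-/- label, and directions in HE1 are therefore those of the labels alone. Tal1 had between 22.0 and 37.4 FPKM in WT and between 2.74 and 3.41 in Tal1-/- Flk-1+ cells. In Lmo2-/- Flk-1+ cells Tal1 had 6.51, 29.0 and 6.64 FPKM. Lmo2 was at 0, 7.58 and 1.29 FPKM in Tal1-/- Flk-1+ cells, below all WT Flk-1+ libraries. The summed FPKM of 7 HE1 endothelial markers ran from 5.0 to 14.8 in Flk-1+ libraries and from 696 to 810 in HE1 libraries, and Kdr, which encodes the sort marker Flk-1, was at 68.7 or more in all 13.

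Among the ligands, Fgf3 (chr7:144838083-144844436 of GRCm38) and Fgf15 (chr7:144894560-144900953) were higher in Flk-1+ cells than in WT HE1. Fgf3 had 25.2, 18.5 and 11.97 FPKM in WT Flk-1+ libraries, 5.20, 15.9 and 10.8 in Lmo2-/-, and 7.24, 6.82 and 4.57 in Tal1-/-. In HE1 it was listed at 0 and had 0.571 FPKM in the libraries labelled WT, and 5.66 and 8.31 in those labelled Lmo2-/-. WT HE1 was thus below all other libraries, and the 3 Tal1-/- libraries lay below the 3 WT Flk-1+ libraries. In order of mean level, WT Flk-1+ cells (18.5 ± 6.61 FPKM, SD, n = 3) were followed by Lmo2-/- Flk-1+ cells (10.6 ± 5.34, n = 3), Lmo2-/- HE1 (6.98 ± 1.87, n = 2), Tal1-/- Flk-1+ cells (6.21 ± 1.43, n = 3) and WT HE1 (0.285 ± 0.404, n = 2). Neighbours in this order overlapped except for the last step.

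Fgf15 had 21.2, 9.77 and 12.7 FPKM in WT Flk-1+ cells, 10.6, 14.2 and 12.6 in Lmo2-/- and 23.7, 27.8 and 25.1 in Tal1-/-. Every Tal1-/- library was above every WT and every Lmo2-/- library, while WT and Lmo2-/- overlapped. HE1 values were 0.425 and 0.923 FPKM under the WT label, and 8.81 (replicate 0) and 0.510 (replicate 1) under the Lmo2-/- label. The Lmo2-/- HE1 group was thus split, with 1 library near the Flk-1+ level and 1 at the WT HE1 level. An antisense gene overlaps Fgf15 in the annotation (Gm26793), and whether the counting used strand is not given in the sources used here.

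Fgf10 (chr13:118669791-118792115), a ligand of FGFR2 with roles in limb and lung buds, was the 1 ligand above 5 FPKM in every library. It had 34.3, 13.2 and 22.6 FPKM in WT Flk-1+ cells, 17.1, 11.02 and 11.8 in Lmo2-/- and 16.9, 13.2 and 18.3 in Tal1-/-. In HE1 it was at 12.8 and 6.23 FPKM under the WT label and at 24.9 and 36.2 under the Lmo2-/- label. The 3 Flk-1+ genotypes overlapped, WT HE1 lay below WT Flk-1+ cells, and Lmo2-/- HE1 lay above Lmo2-/- Flk-1+ cells.

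Fgf8 (chr19:45736798-45742915) and Fgf5 (chr5:98254184-98277030), ligands of the early epiblast and streak, were near the bottom of the range. Fgf8 was listed at 0 and had 1.27 and 1.78 FPKM in WT Flk-1+ cells, had 0.882, 0.868 and 0.926 in Lmo2-/-, and was listed at 0 in all 3 Tal1-/- and all 4 HE1 libraries. Fgf5 had 1.06, 0.429 and 1.16 FPKM in WT Flk-1+ cells, 0.365, 0.567 and 0 in Lmo2-/-, and 1.04, 0 and 0.578 in Tal1-/-, and was listed at 0 in HE1. No fold is given against groups listed at 0.

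Summed over the 5 ligands, FPKM ran from 43.1 to 81.7 in WT, from 34.1 to 42.6 in Lmo2-/- and from 47.8 to 48.9 in Tal1-/- Flk-1+ cells. The near-equal Tal1-/- sums had a different make-up, with Fgf15 giving 48.4 to 58.1 percent of the sum against 22.7 to 25.9 percent in WT and 31.1 to 34.9 percent in Lmo2-/-. Fgf3 gave 9.42 to 14.8 percent in Tal1-/- and 23.9 to 42.9 percent in WT. In HE1 the sum was 13.2 and 7.73 FPKM in the libraries labelled WT, of which Fgf10 was 96.8 and 80.7 percent. Those labelled Lmo2-/- had 39.3 and 45.0 FPKM, with Fgf10 at 63.2 and 80.4 percent.

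**Figure D1:**
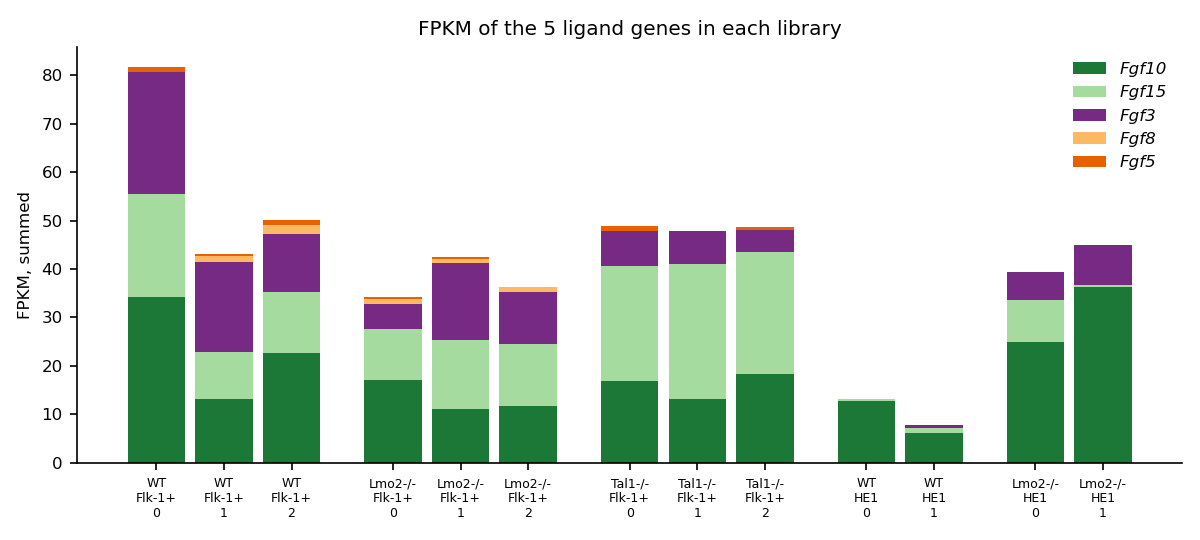
Stacked bars give the FPKM of Fgf10, Fgf15, Fgf3, Fgf8 and Fgf5 in each of the 13 libraries, with the replicate number under each bar. The 2 bars of HE1 labelled WT are the lowest, at 13.2 and 7.73 FPKM, and the Fgf15 segment is tallest in the Tal1-/- libraries.

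The receptor gene Fgfr1 (chr8:25513654-25575714) was the most abundant member per length in every library. It had 35.5, 50.4 and 33.7 FPKM in WT Flk-1+ cells, 49.0, 53.3 and 72.0 in Lmo2-/- and 70.9, 78.0 and 49.5 in Tal1-/-. In HE1 it had 40.6 and 27.1 FPKM in the libraries labelled WT and 56.3 and 68.7 in those labelled Lmo2-/-. By mean level Tal1-/- Flk-1+ cells came first, with 66.1 ± 14.8 FPKM (SD, n = 3), and WT HE1 last, with 33.8 ± 9.52 (SD, n = 2), but every pair of neighbours among the 5 groups overlapped. Lmo2-/- HE1 lay above WT HE1 without overlap.

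Of the feedback genes, Spry1 had 3.21, 4.49 and 4.07 FPKM in WT Flk-1+ cells, 2.61, 0.811 and 2.92 in Lmo2-/- and 2.87, 2.1 and 2.18 in Tal1-/-. In HE1 it had 1.39 and 1.33 FPKM in the libraries labelled WT, and 15.6 and 8.51 in those labelled Lmo2-/-. All knockout Flk-1+ libraries were below all WT ones, and both Lmo2-/- HE1 libraries were above every other library. The row (chr3:37638579-37647952) also carries the gene Gm43820, so its FPKM is not of Spry1 alone. Spry2 (chr14:105891949-105896819) overlapped between all 3 Flk-1+ genotypes, with 8.74, 5.62 and 5.54 FPKM in WT, 4.88, 4.12 and 6.30 in Lmo2-/- and 9.90, 5.49 and 3.45 in Tal1-/-. It was listed at 0 and had 2.38 FPKM in the HE1 libraries labelled WT, and had 9.50 and 16.2 in those labelled Lmo2-/-, so the HE1 groups did not overlap.

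Spry4, on chromosome 18, had 11.99, 5.55 and 4.27 FPKM in WT Flk-1+ cells, 3.69, 3.56 and 2.50 in Lmo2-/- and 6.52, 11.4 and 7.15 in Tal1-/-. In HE1 it had 3.30 and 6.03 FPKM in the libraries labelled WT, and 24.6 and 4.63 in those labelled Lmo2-/-. Dusp6 (chr10:99263231-99267488) followed the same arrangement, with 13.9, 5.998 and 8.77 FPKM in WT, 4.14, 2.22 and 4.19 in Lmo2-/- and 11.6, 6.89 and 6.81 in Tal1-/- Flk-1+ cells. For Dusp6 the HE1 values were 6.18 and 9.63 FPKM under the WT label and 24.7 and 4.83 under the Lmo2-/- label. For both genes the 3 Lmo2-/- Flk-1+ libraries lay below all WT and all Tal1-/- Flk-1+ libraries, and the 2 Lmo2-/- HE1 libraries were far apart, with replicate 0 the higher. Over the 13 libraries Spry4 and Dusp6 had the highest correlation of any pair of members (Pearson r = 0.81 of log2(FPKM + 1)), given as a description since the libraries of a group share genotype and stage.

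**Figure D2:**
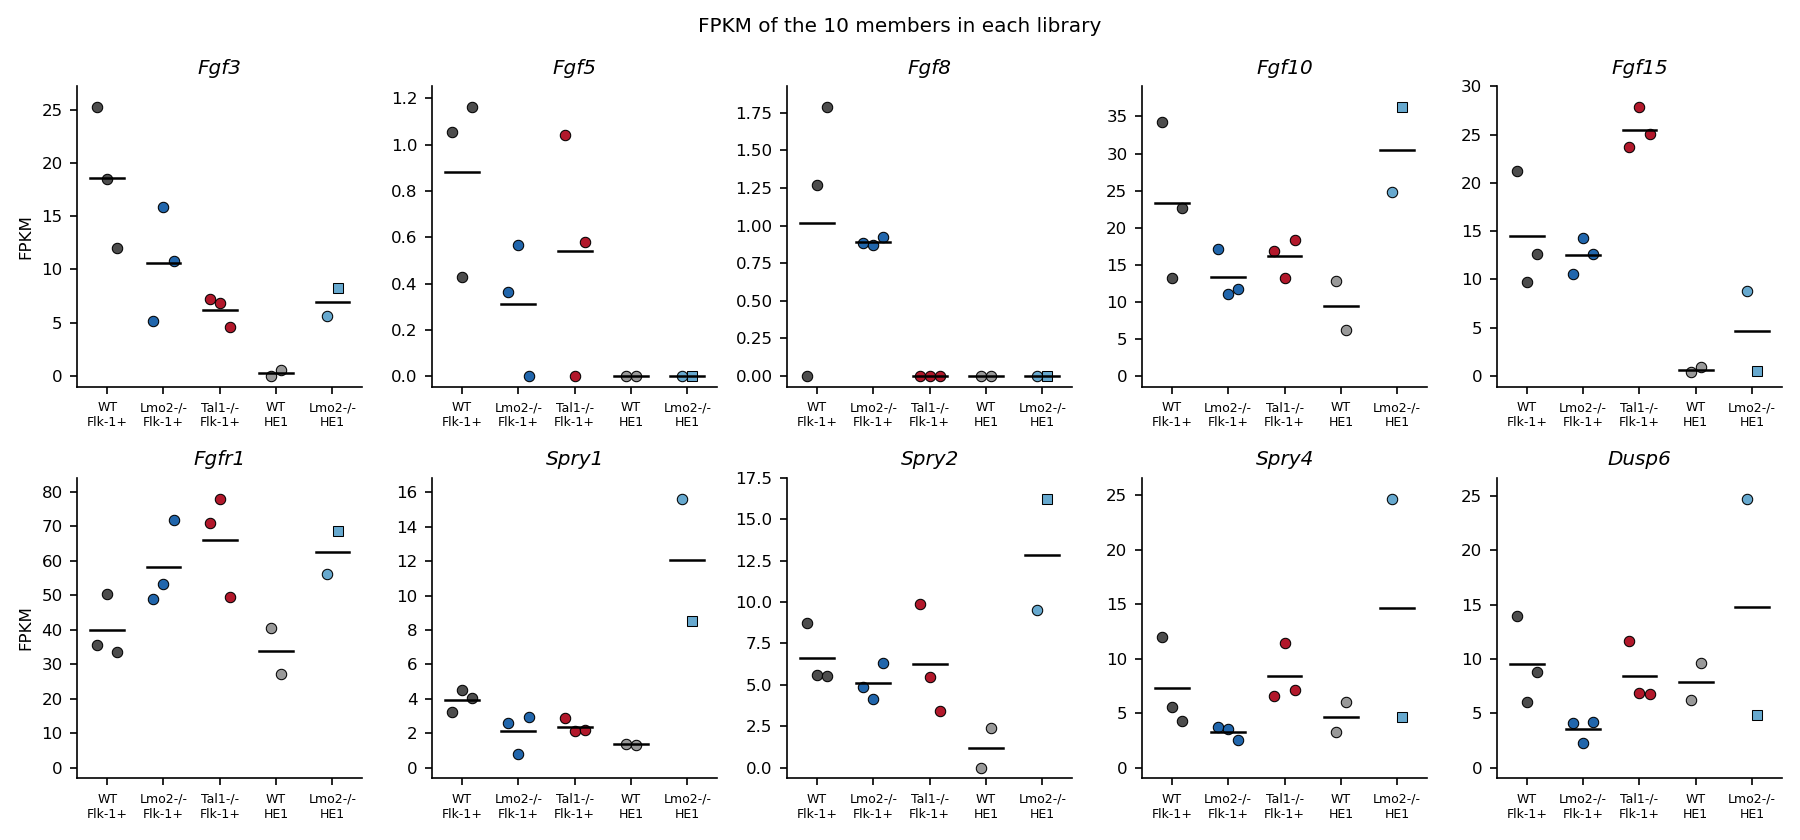
Each panel plots the FPKM of 1 member (linear axis, own scale) in the 13 libraries by group, with a bar at the group mean and a square for Lmo2-/- HE1 replicate 1. The HE1 libraries labelled WT are at or near 0 for Fgf3, while both HE1 libraries labelled Lmo2-/- are above every other library for Spry1, and for Spry2 their mean of 12.9 FPKM is the highest group mean.

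The first comparison asks what loss of LMO2 changes in haemangioblasts. None of the 10 members passed the test from WT to Lmo2-/- Flk-1+ cells in limma, which asked for an adjusted p under 0.05 together with a group mean above 10 FPKM, and 0 percent of all 13802 genes tested passed. All 10 members had passed the filter on low values, Fgf8 only through WT Flk-1+ libraries, and Fgf5 would not have met it without them. At an unadjusted p below 0.05, 1 member (Dusp6) was found, against 2.22 percent of all genes. Dusp6 had a log2 fold change of -1.19 (standard error 0.53, 95 percent interval -2.33 to -0.05, limma adjusted p = 1), on the log2(FPKM + 1) scale used throughout. Its 3 libraries and those of Spry1 (-0.73, interval -1.65 to 0.19) and Spry4 (-0.86, interval -2.05 to 0.32) lay below WT without overlap, that is 3 of 10 members against 4.22 percent of all genes. With 3 libraries against 3 an exact permutation test, two-sided, cannot give less than p = 0.10, which is its value for these genes. Of the 10 members 8 had a fold change below 0, with a median of -0.61, where 51.5 percent of all genes were at or below 0. The 8 include Fgf5, whose lower side is tied to the filter and is not support. The 4 feedback genes and 4 of the 5 ligands were on the lower side (all 5 ligands with quantile normalization, where Fgf8 turned), whereas Fgfr1 was at 0.54 (standard error 0.31, interval -0.12 to 1.19). Marker sums of other cells differed between these groups as well. In Lmo2-/- against WT Flk-1+ libraries they were lower for 7 primitive streak markers (129 to 169 against 231 to 445 FPKM) and for pluripotent markers (10.3 to 10.8 against 16.0 to 16.4). They were higher for 6 fibroblast markers (19.4 to 28.2 against 5.64 to 13.2) and for cardiac markers (18.5 to 32.1 against 15.3 to 17.5). The fibroblast sums were mostly Col1a1 (15.9 to 26.9 against 4.54 to 12.8), and Dcn, Lum and Postn were listed at 0 in both groups. Of 5 fibroblast markers tested 3 were higher, 1 of them without overlap, and 0 lower. Of 6 streak markers tested 5 were lower (2 without overlap) and 1 higher. Of 4 pluripotent markers tested 3 were lower (1 without overlap) and 1 higher. Of 5 cardiac markers tested 4 were higher (1 without overlap) and 1 lower. No marker of these lists passed the test, and their part in the members' values was not tested.

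From WT to Tal1-/- Flk-1+ cells the ligands Fgf3 and Fgf15 were on opposite sides. No member passed the test, as for 0 percent of all genes, and 3 members had an unadjusted p below 0.05, against 6.11 percent of all genes. Fgf3 had a log2 fold change of -1.40 (standard error 0.45, interval -2.38 to -0.43, limma adjusted p = 0.611). Fgfr1 was at 0.71 (standard error 0.31, interval 0.06 to 1.37, limma adjusted p = 0.778), with overlap between libraries. The other was Fgf8, listed at 0 in Tal1-/- and in 1 of the WT libraries. Since Fgf8 met the filter through WT Flk-1+ libraries alone, its lower side here was fixed by the filter and is not support. Fgf15 was at 0.84 (standard error 0.56, interval -0.36 to 2.04, limma adjusted p = 0.949), although all its Tal1-/- libraries were above WT (exact permutation test, two-sided, p = 0.10). Fgf3 and Spry1 lay below WT without overlap and Fgf15 above it, against 7.4 and 5.25 percent of all genes in these directions. The fibroblast markers summed to 20.3 to 32.9 FPKM in Tal1-/- libraries, above WT without overlap. Most of this was Col1a1 (16.2 to 30.3 against 4.54 to 12.8 in WT), and 2 of 5 tested markers were higher without overlap. The streak markers summed to 136 to 255 FPKM, with 3 of 6 tested markers higher and 3 lower. The part of either list in the members' values was not tested.

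Set against each other, Lmo2-/- and Tal1-/- Flk-1+ cells were apart in Fgf15, Spry4 and Dusp6, whose Tal1-/- libraries were all the higher. None of the 10 members passed the test, where 0.0145 percent of all genes did. At an unadjusted p below 0.05 there was 1 member, Fgf8, against 5.96 percent of all genes, but its values were under 1 FPKM in both groups. Spry4 was at 1.12 (standard error 0.55, interval -0.07 to 2.3, limma adjusted p = 0.855) and Dusp6 at 1.06 (standard error 0.53, interval -0.08 to 2.2, limma adjusted p = 0.858). With Fgf15, at 0.98 (standard error 0.56, interval -0.22 to 2.18), these were the 3 members whose Tal1-/- libraries all lay above Lmo2-/-, against 6.59 percent of all genes. Fgf8 lay below, and 6.66 percent of all genes did so. The 3 Flk-1+ comparisons share their libraries in pairs, so they are not independent. The pluripotent markers summed to 14.8 to 30.0 FPKM in Tal1-/- against 10.3 to 10.8 in Lmo2-/- libraries, with 3 of 4 tested markers higher and none passing the test, and their part in these values was not tested.

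HE1 was the stage at which members passed the test between genotypes. From the libraries labelled WT to those labelled Lmo2-/-, Spry1 and Spry2 rose, 2 of the 10 members against 3.01 percent of all genes (2.15 percent in this direction). Spry1 went from 1.36 ± 0.038 to 12.1 ± 5.03 FPKM (SD, n = 2 in each group), which is 2.41 on the log2 scale (standard error 0.52, interval 1.28 to 3.54, limma adjusted p = 0.0213). Spry2 went from 1.19 ± 1.68 to 12.9 ± 4.76 FPKM (SD, n = 2 in each group), which is 2.87 on the log2 scale (standard error 0.62, interval 1.53 to 4.22, limma adjusted p = 0.0212). Without Lmo2-/- HE1 replicate 1 the fold changes were 2.82 (limma adjusted p = 0.0379) for Spry1 and 2.51 (adjusted p = 0.128) for Spry2, with the lone library taken to vary like the other groups. Without replicate 0 Spry1 was at 2.01 with a mean FPKM under 10, and Spry2 at 3.23. Without WT HE1 replicate 0 neither passed (limma adjusted p = 0.118 and 0.187), and without WT replicate 1 Spry1 did not (adjusted p = 0.0986). Both calls were lost with quantile normalization (limma adjusted p = 0.0826 and 0.0634) and with rescaling to a common median (adjusted p = 0.108 and 0.0569). They were also lost with only the HE1 libraries in the fit, where 0 of all 13802 genes passed. With 2 libraries against 2 the exact permutation test, two-sided, cannot go below p = 0.333.

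Fgf3 was higher in the HE1 libraries labelled Lmo2-/- by 2.65 (standard error 0.55, interval 1.46 to 3.85, limma adjusted p = 0.0176), but its group means of 0.285 and 6.98 FPKM were under the level asked of a call. Fgf10 (1.64, standard error 0.49, limma adjusted p = 0.0759) and Fgfr1 (0.89, standard error 0.37, adjusted p = 0.2) did not pass, although their libraries did not overlap. Without Lmo2-/- HE1 replicate 1 the fold changes of Fgf3, Fgf10 and Fgfr1 were 2.41, 1.37 and 0.75. Without replicate 0 they were 2.89, 1.90 and 1.03. Each of these fits leaves 1 library in the group, so no p is given. In all, 5 of 10 members lay above WT HE1 without overlap, where 25.9 percent of all genes did. A fold change above 0 was found in 8 members and 55 percent of all genes, with Fgf5 and Fgf8 at 0 in both groups, and 5 members had an unadjusted p below 0.05, against 20.7 percent. Fgf15 (1.22, standard error 0.68), Spry4 (1.13, standard error 0.67) and Dusp6 (0.49, standard error 0.65) overlapped between the groups. Their values hung on the library: without replicate 0 of Lmo2-/- HE1 Fgf15 was at -0.13 and Spry4 at 0.04, and without replicate 1 at 2.57 and 2.22.

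Fibroblast markers moved with the HE1 labels. The summed FPKM of 6 fibroblast markers was 35.7 and 29.2 in the libraries labelled WT against 177 and 762.45 in those labelled Lmo2-/-, with 3 to 4 of 6 markers at 1 FPKM or more against 5. All 5 fibroblast markers tested were higher without overlap, and 3 passed the test. Of 4 smooth muscle markers tested 2 were higher (1 without overlap) and 2 lower, with sums of 219 and 184 against 331 and 840 FPKM. Of 7 endothelial markers 3 were higher (2 without overlap) and 4 lower (all 4 without overlap). Emcn was at 7.84 and 8.02 FPKM against 0 in both libraries labelled Lmo2-/-. None passed in either list, but 1 endothelial marker had a limma adjusted p below 0.05. The endothelial sums were 803 to 810 against 696 to 774. Differences in cell make-up and in RNA per cell cannot be told apart in bulk RNA, and their part in the FGF values was not tested.

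The stage comparison in WT cells showed the FGF genes on the lower side in HE1. All 10 members had a fold change below 0, with a median of -0.97, where 45.6 percent of all genes were at or below 0 and the median of all genes was 0.11. Fgf5 and Fgf8 met the filter in WT Flk-1+ cells and were listed at 0 in HE1. Their lower side was thus fixed by the filter and is not support. All 10 kept this side with quantile normalization and with rescaling to a common median. Fgf3 and Fgf15 fell, 2 of 10 members against 6.98 percent of all genes (0.942 percent in this direction). Fgf3 had a log2 fold change of -3.90 (standard error 0.51, interval -4.99 to -2.81, limma adjusted p = 0.000388) and Fgf15 of -3.16 (standard error 0.62, interval -4.50 to -1.82, limma adjusted p = 0.00617). Without WT HE1 replicate 0 Fgf15 was at -2.95 and did not pass (limma adjusted p = 0.0782), and Fgf3 did (adjusted p = 0.0101). Spry2 was at -2.03 (standard error 0.57, limma adjusted p = 0.0392), with group means of 6.63 and 1.19 FPKM, under the level asked of a call. Fgf10 was at -1.19 (standard error 0.44, limma adjusted p = 0.116). In all, 7 members had an unadjusted p below 0.05, against 23.9 percent of all genes, and 6 lay below Flk-1+ cells without overlap, against 17.2 percent of all genes. The 7 include Fgf5 and Fgf8, and the 6 include Fgf5, with the limit of the filter given above. Fgfr1 (-0.23, interval -0.97 to 0.50) and Dusp6 (-0.20, interval -1.48 to 1.07) had fold changes that could not be told from 0, but the intervals leave room for a change of either sign. Exact permutation tests of 3 libraries against 2, two-sided, cannot go below p = 0.20.

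In the Lmo2-/- cells the same step had another make-up. Spry1 rose by 2.09 on the log2 scale (standard error 0.48, interval 1.06 to 3.12, limma adjusted p = 0.00702) and Fgf15 fell, by -1.80 (standard error 0.62, interval -3.14 to -0.46, limma adjusted p = 0.0489), 2 of 10 members against 19.6 percent of all genes (17.2 percent higher and 2.38 percent lower). Without Lmo2-/- HE1 replicate 1 Spry1 was at 2.49 (limma adjusted p = 0.0105), while Fgf15 was at -0.45 (adjusted p = 0.553). The call of Fgf15 was also lost with the replicate number as a block (limma adjusted p = 0.0711) and without any 1 of the Lmo2-/- Flk-1+ libraries. Without Lmo2-/- HE1 replicate 0 Spry1 was at 1.69 (limma adjusted p = 0.0283) with a mean FPKM under 10. All 4 feedback genes lay above Lmo2-/- Flk-1+ cells without overlap, as did Fgf10, against 31.9 percent of all genes, and Fgf8 and Fgf15 lay below, against 15.1 percent. An unadjusted p below 0.05 was found in 6 members and 38.7 percent of all genes. Spry4 was at 1.51 (standard error 0.61, limma adjusted p = 0.0878) and Dusp6 at 1.47 (standard error 0.59, adjusted p = 0.0842). Without Lmo2-/- HE1 replicate 1 they were at 2.60 (limma adjusted p = 0.0117) and 2.54 (adjusted p = 0.0103), and without replicate 0 at 0.42 and 0.40. Fgf3 was at -0.45 (interval -1.54 to 0.64), where WT cells had -3.90. The median of all genes was 0.30 here, against 0.63 over the members. With rescaling to a common median it was -0.34, against -0.12 over the members, Spry1 was at 1.25 (limma adjusted p = 0.127), Fgfr1 turned to the lower side, and the calls over all genes went from 2379 higher and 328 lower to 609 and 764.

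**Figure D3:**
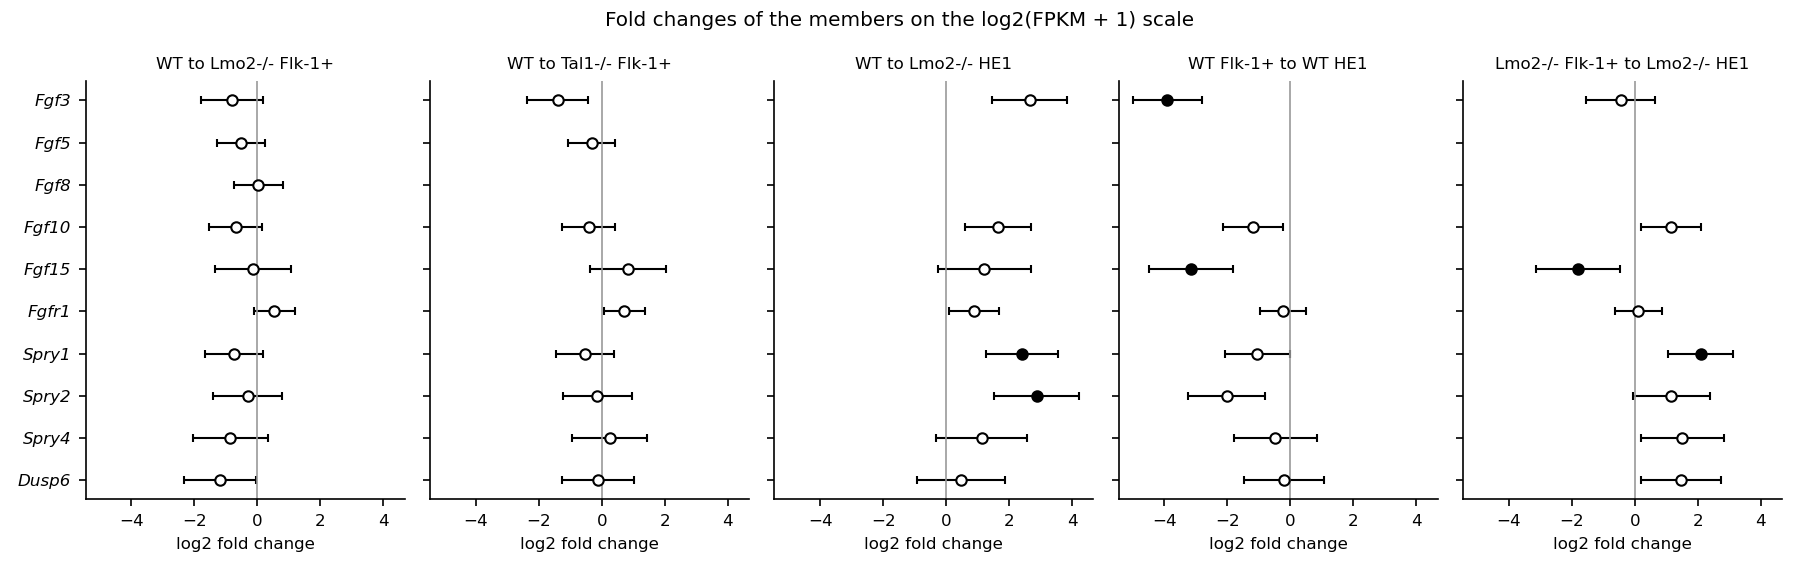
Points are log2 fold changes of the members in 5 comparisons (from the first to the second group of each title) with 95 percent intervals, filled where the gene passed the test and left out where a group was listed at 0. Feedback genes sit left of 0 from WT to Lmo2-/- Flk-1+ cells and right of 0 from WT to Lmo2-/- HE1.

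Whether the genotype effect differed between stages was tested as an interaction, positive where the Lmo2-/- against WT difference was larger in HE1 than in Flk-1+ cells. None of the 10 members passed, against 0.348 percent of all genes, and 5 had an unadjusted p below 0.05, against 12.1 percent. Those nearest were Fgf3 at 3.46 (standard error 0.72, limma adjusted p = 0.0581), Spry1 at 3.14 (standard error 0.68, adjusted p = 0.0640), Spry2 at 3.18 (standard error 0.80, adjusted p = 0.118) and Fgf10 at 2.33 (standard error 0.63, adjusted p = 0.141). Leaving out either Lmo2-/- HE1 library leaves 1 in that group, so no p of those fits is given here. Over all alternatives, the other pseudocount included, the values ran from 2.86 to 5.62 for Fgf3 and from 2.65 to 4.02 for Spry1. For Spry2 they ran from 2.31 to 5.01 and for Fgf10 from 1.79 to 2.80. Fgfr1 was at 0.35 (interval -0.69 to 1.39). The median over the members was 1.83, and 9 of 10 were above 0, where 59 percent of all genes were (8 of 10 with rescaling, where Fgfr1 turned). Fgf5, listed at 0 in all HE1 libraries, is among those above 0. Its 0.52 is only its Flk-1+ difference of -0.52 with the sign turned, and is not support.

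Of 58 further genes of the pathway, 57 were in the table and 41 were tested. In the 3 Flk-1+ comparisons none of the 41 passed in limma, and 2, 3 and 3 had an unadjusted p below 0.05, against 2.22, 6.11 and 5.96 percent of all genes. From WT to Lmo2-/- HE1 3 of 41 rose and none fell, where 3.01 percent of all genes passed (2.15 percent higher): Il17rd (Sef), a membrane inhibitor of FGF signalling, by 2.56 (standard error 0.42, limma adjusted p = 0.00516), the receptor adaptor Frs2 by 2.06 (standard error 0.40, adjusted p = 0.0122) and the kinase gene Braf by 1.68 (standard error 0.40, adjusted p = 0.0321). Il17rd had 4.79 and 2.52 FPKM in the HE1 libraries labelled WT, and 26.5 and 24.6 in those labelled Lmo2-/-. It was the 1 of the 41 that passed in the interaction (3.15, standard error 0.54, limma adjusted p = 0.0262), and between the WT stages it fell, with -1.90 (adjusted p = 0.00700) and between the Lmo2-/- stages it rose by 1.25 (adjusted p = 0.0289). With rescaling to a common median Il17rd and Frs2 still passed in HE1, but Il17rd did not in the interaction (limma adjusted p = 0.0680) or between the Lmo2-/- stages (0.30, adjusted p = 0.621).

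Between the WT stages 3 of the 41 rose and 3 fell, where 6.98 percent of all genes passed (834 higher and 130 lower of 13802). Flrt2, an FGF receptor-binding membrane protein, rose by 5.48 (standard error 0.50, limma adjusted p = 3.83e-05), and the relay genes Gab1 by 1.87 (adjusted p = 0.00476) and Plcg1 by 1.37 (adjusted p = 0.0227). Il17rd, Braf (-1.71, limma adjusted p = 0.00931) and Etv5 (-2.29, standard error 0.48, adjusted p = 0.00920) fell. Between the Lmo2-/- stages 10 rose and none fell, among them the membrane proteins Flrt2 (4.91) and Flrt3 (1.70), the inhibitors Spred2 (1.47) and Il17rd, and the relay genes Gab1 (1.93), Sos1 (1.78), Frs2 (1.54) and Shc1 (1.25). Beside these 10 of 41, 19.6 percent of all genes passed in that comparison. The Lmo2-/- calls rested on the scaling: with rescaling to a common median Flrt2 alone of the 41 rose there, and Braf and Map2k1 fell.

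**Figure D4:**
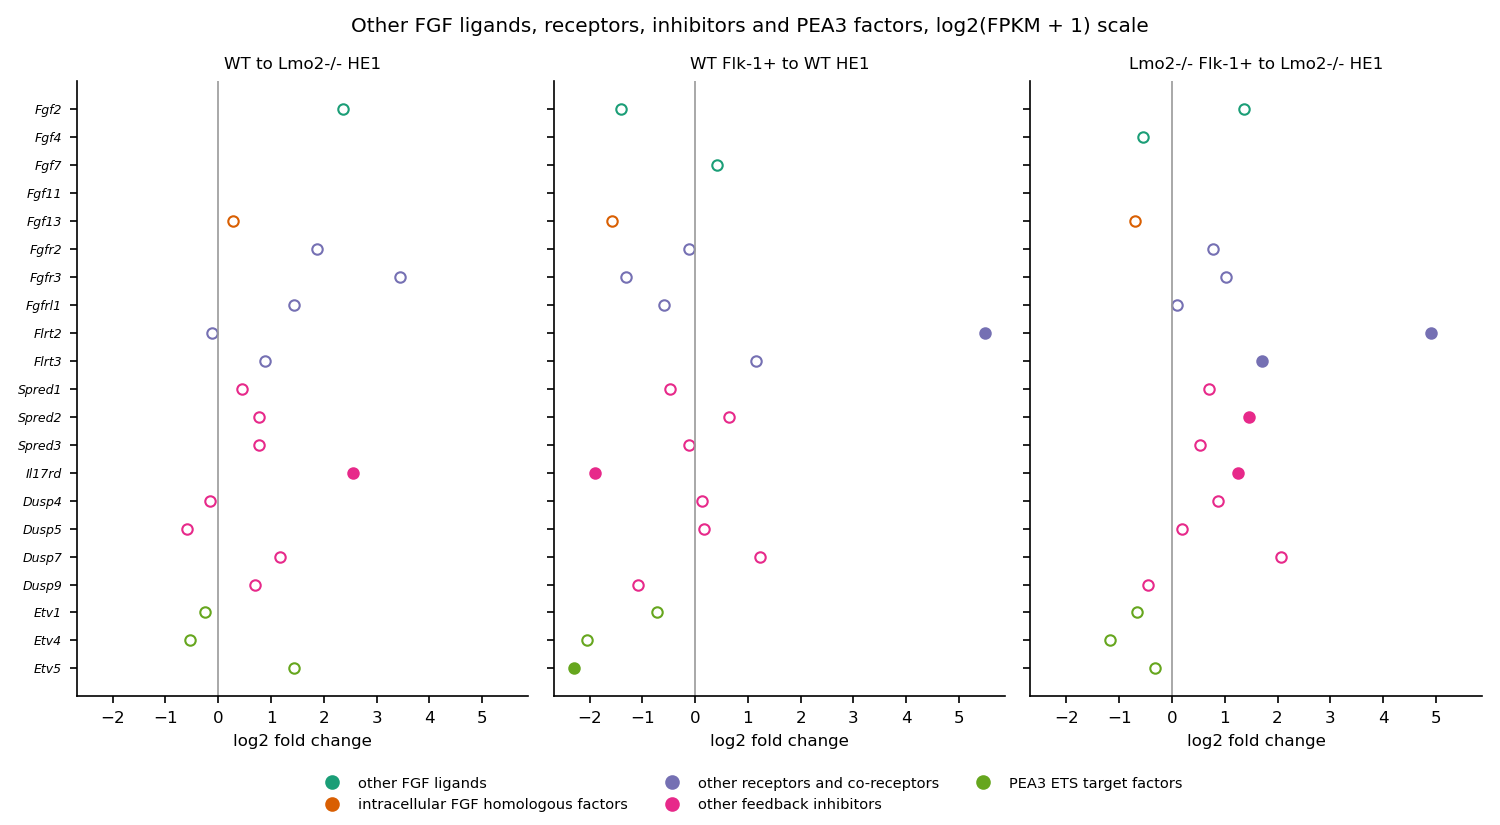
Points are log2 fold changes of the other ligands, receptors, feedback inhibitors and PEA3 factors tested, by list (colour), for the HE1 genotypes and for the stages of WT and of Lmo2-/- cells, filled where the gene passed the test and left out where a group was listed at 0. Il17rd lies on the lower side between the WT stages and on the higher side in the other 2 panels, by 0.30 only in the Lmo2-/- stages after rescaling.

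The PEA3 factors Etv1, Etv4 and Etv5 are ETS proteins whose genes respond to FGF. Etv5 had 20.3, 7.20 and 7.82 FPKM in WT, 6.07, 8.35 and 6.64 in Lmo2-/- and 14.9, 11.02 and 12.1 in Tal1-/- Flk-1+ cells, so that Tal1-/- lay above Lmo2-/- without overlap (0.77, standard error 0.43, limma adjusted p = 0.895). In HE1 it had 0.762 and 2.16 FPKM in the libraries labelled WT and 4.46 and 6.53 in those labelled Lmo2-/- (1.44, standard error 0.53, limma adjusted p = 0.145). Etv4 had 6.20, 17.2 and 5.20 FPKM in WT and 3.36, 0.984 and 4.10 in Lmo2-/- Flk-1+ cells (-1.40, standard error 0.59, limma adjusted p = 1). It was at -2.04 between the WT stages (standard error 0.66, limma adjusted p = 0.0698). Etv1 was between 0 and 6.98 FPKM in all libraries, and no comparison of it had an unadjusted p below 0.05.

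Of the other receptor genes, Fgfr2 had 19.9 to 44.8 FPKM in WT and 48.0 to 59.0 in Lmo2-/- Flk-1+ cells (0.97, standard error 0.45, limma adjusted p = 1), but its row also carries Ctbp2. In HE1 the same row had 36.5 and 17.2 FPKM in the libraries labelled WT, and 66.4 and 133 in those labelled Lmo2-/- (1.86, standard error 0.55, limma adjusted p = 0.0764). Fgfr3 had 0.561 and 1.81 FPKM against 4.70 and 91.1 there (3.45, standard error 1.07, limma adjusted p = 0.0869), the 91.1 being from replicate 1. Fgfr4 was at 0.0792 FPKM or less in all libraries and was not tested. In FPKM, a level per length, Fgfr1 and the Fgfr2 row were above Fgfr3 and Fgfr4 in every Flk-1+ library.

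Fgf3, Fgf4 and Fgf15 lie in this order within one stretch of chromosome 7, all on the plus strand, with the Fgf4 row starting 23.3 kb and the Fgf15 row 56.5 kb after the start of Fgf3. Fgf4 was added for its place between the other two after its values were seen. It had 0.235, 0.0479 and 1.29 FPKM in WT, 0.970, 0.649 and 0.393 in Lmo2-/- and 2.67, 3.05 and 1.87 in Tal1-/- Flk-1+ cells. Fgf4 and Fgf15 thus lay above WT and Lmo2-/- in all 3 Tal1-/- libraries (Fgf4 1.28 against WT, standard error 0.37, limma adjusted p = 0.480), while Fgf3 lay below WT in all 3. Without its Tal1-/- libraries Fgf4 would not have met the filter. Its higher side there is tied to the filter and is not support. In the HE1 libraries labelled WT Fgf4 was listed at 0, and Fgf3 and Fgf15 were under 1 FPKM.

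The genes most like Fgf8, Fgfr1 and Dusp6 were sought among 7282 tested genes with a mean FPKM above 10 in a group, by Pearson correlation of log2(FPKM + 1) over the 13 libraries. For Fgf8 they were the small RNA gene Gm25848 (r = 0.86), the dynein light chain gene Dynll2 (0.85) and Bex2 (0.85), but 8 of the 13 Fgf8 values were 0. For Fgfr1 they were a row shared by Atp6v0a4 and D630045J12Rik (0.84), the glycogen synthase gene Gys1 (0.84) and the adaptor gene Dok4 (0.84). For Dusp6 they were Fbxo5 (0.84), the recombination gene Rad54l (0.83) and Pop1 (0.82). The 13 libraries share 5 groups, so the correlations are descriptions, and none carries a p. Among the members, the correlation of Fgf8 with Dusp6 was -0.45 and with Spry4 -0.53, and that of Fgf3 with Spry2 0.72.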

How the data were processed

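Reads were aligned by the authors to GRCm38 (mm10) with TopHat2 2.0.9, and transcripts were assembled with Cufflinks 2.0.0 and compared with Cuffdiff 2.0.1, per the paper and the labels. The methods name quartile normalisation for the assembly. The supplement names Cuffnorm for the FPKM normalisation behind its principal component analysis, and the per-library FPKM used here carry that name. The authors deposited FPKM per library and FPKM per condition; the latter gave gene names and positions only. Every per-library column was used (0 left out). A further deposited table holds the authors' Cuffdiff fold changes, p-values and q-values for pairs of conditions and was not used. The kit marks strand, but whether counting used strand is not given in the sources used here. ChIP and DNase data were not analysed here.

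The filter kept 13802 genes, those with a locus over 200 bp that reached 1 FPKM in 2 or more of 13 libraries. A linear model with group as factor was run over all libraries in limma 3.58.1 (R 4.3.3) on log2(FPKM + 1), with the trend option, two-sided tests and Benjamini-Hochberg adjustment over all genes kept. Genes were called when the adjusted p was under 0.05 and 1 of the groups compared averaged over 10 FPKM. The script was tested on simulated data. Exact permutation tests used scipy 1.17.1 in Python 3.11.15. The study describes the libraries of a group as independent biological replicates, so p-values measure the spread between samples of 1 line. Alternatives were a second pseudocount, 2 further filters, calls without the FPKM criterion, quantile normalization, rescaling to a common median, models of only the groups in a comparison, no trend option, array weights, a block for the replicate number, and leaving out each library.

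The named genes were the 10 members, other pathway genes that passed a test (at most 15 a comparison, of which 2 are not reported here), Etv1, Etv4, Etv5, Fgfr2, Fgfr3 and Fgfr4, the 3 genes most like each of Fgf8, Fgfr1 and Dusp6, Lmo2 and Tal1. Kdr and Fgf4 were added after their values were seen. The members and lists were chosen with earlier results of these data known. Promoters are from RefSeq and positions from the deposited table.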

Additional observations from a re-analysis of the deposited data

Results flagged for a closer look

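In 3 members every library of 1 group moved one way and every library of another the opposite way. The tests of the difference, as interactions in limma, did not pass the threshold. Spry1 was lower than WT in all 3 Lmo2-/- Flk-1+ libraries and higher than WT in both HE1 libraries labelled Lmo2-/-, with an interaction of 3.14 (limma adjusted p = 0.0640). By stage, Spry1, Spry2 and Fgf10 had every WT HE1 library below every WT Flk-1+ library, and every Lmo2-/- HE1 library above every Lmo2-/- Flk-1+ library. The interactions of Spry2 and Fgf10 were 3.18 (limma adjusted p = 0.118) and 2.33 (adjusted p = 0.141). No group had 4 libraries, so no search for single outlying libraries was made.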

How the results depend on the processing

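The files hold FPKM without fragment counts, so depth limits could not be set, and groups have 2 or 3 libraries. The number of members that passed in the 3 Flk-1+ comparisons was 0 under every alternative run. From WT to Lmo2-/- HE1 it was 0 in place of 2 with quantile normalization, with rescaling to a common median, with only the groups compared in the fit and with array weights, 3 without the FPKM criterion, and 0 to 2 with 1 library left out. Rescaling moved the median fold change of all genes from 0.15 to -0.05 there, from 0.11 to -0.24 between the WT stages and from 0.30 to -0.34 between the Lmo2-/- stages. The calls of all genes, higher and lower, then went from 297 and 118 to 115 and 115 in HE1, and from 834 and 130 to 419 and 316 between the WT stages. Between the WT stages the number was 3 with quantile normalization, with rescaling and without the FPKM criterion, and 1 to 2 with 1 library left out. Between the Lmo2-/- stages it was 1 in place of 2 with a pseudocount of 0.1, no filter on low values, rescaling to a common median, no trend or the replicate block, 0 with only the groups compared or with array weights, and 1 to 3 with 1 library left out. In the interaction it was 1 with a pseudocount of 0.1, 2 with no trend and 0 to 3 with 1 library left out. Of 572 alternative values of 38 fold changes, 1 changed sign, that of Fgf15 from WT to Lmo2-/- HE1 without Lmo2-/- HE1 replicate 0 (-0.13 to 2.57 over the libraries left out), 28 lost a call and 11 gained one. The cause was not tested. The 38 were picked for a low unadjusted p in the main fit, with no compared group at 0 throughout, so few sign changes could occur. Among those not followed, quantile normalization turned Fgf8 from WT to Lmo2-/- Flk-1+ cells, Fgf5 and Fgfr1 between the Lmo2-/- stages, and Fgf8 and Fgfr1 in the interaction. Whether equal replicate numbers pair the libraries is not stated. Same-number libraries had deviations correlated from -0.18 to 0.17. These are taken around means of 2 or 3 libraries and cannot tell whether the numbers pair. With the replicate block the number of members that passed was 0, 0 and 0 in the Flk-1+ comparisons, 2 in HE1, 2 and 1 between the stages and 0 in the interaction.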
